A study of Homo sapiens with 6 samples.

Results

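The 10 genes described here encode the 5 subunits of NF-kB (NFKB1, NFKB2, REL, RELA and RELB) and 5 of its inhibitors (NFKBIA, NFKBIB, NFKBIE, NFKBIZ and TNFAIP3). They were chosen by name from the 62696 genes counted, and all 10 were among the 17307 genes with enough counts to be tested. RNA-Seq was performed on 6 cultures of DMS53, an established small cell lung cancer (SCLC) cell line of the neuroendocrine (NE) type, to examine a possible role of OC2 in SCLC cell plasticity. The 3 control cultures carried an empty lentiviral vector and the 3 OC2-OE cultures carried a lentiviral vector for constitutive expression of ONECUT2 (OC2) with an mGFP tag. Both vectors carry mGFP and puromycin resistance, both groups were selected with puromycin in the same medium, and untransduced cells were not analysed here. The study describes 3 independent experiments per condition, but the sources used here do not say whether each culture came from its own transduction, so the p-values measure the spread between these cultures.

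NF-kB is a family of transcription factors that bind DNA as dimers of the subunits. In resting cells the IkB proteins hold the dimers in the cytoplasm, and signals from receptors such as those for TNF, interleukin 1 and bacterial products activate the IKK kinases, which mark IkB for degradation and free the dimers (the canonical pathway). A slower, non-canonical pathway runs through the kinase MAP3K14 and the processing of the NFKB2 precursor, and yields dimers of NFKB2 with RELB. Several NF-kB target genes encode parts of the pathway itself, among them NFKBIA and TNFAIP3, which switch the signal off again.

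ONECUT2, examined first as a check of the labels, had 1271 counts in all control libraries together and 215647 in all OC2-OE libraries together, where its counts include the introduced coding sequence. The libraries held 16533284 to 19099337 counts, and no library stood apart from its group: the variance of the counts over that of sampling was 1.31 to 2.10 times between libraries of a group and 95.6 to 106 times between groups. The 9 NE markers examined were all detected, and their summed level was 2970 to 2972 CPM in control and 2631 to 2668 CPM in OC2-OE. CPM is the count of a gene scaled to a common library total after TMM normalisation. At an adjusted p under 0.001 (edgeR) 4 were higher and 5 lower, beside 27.8% higher and 28.7% lower among all tested genes. The sum hides changes in both directions. Mean CPM fell from 503 to 87.3 for DDC, 164 to 41.2 for NCAM1 and 329 to 86.6 for INSM1. It rose from 72.2 to 150 for CHGA, 184 to 279 for ENO2 and 185 to 217 for SYT1. UCHL1, the most abundant of the 9, rose from 1077 to 1430 CPM. Of 8 leukocyte markers 2 had enough counts to be tested, and both, CD14 and LYZ, were higher in OC2-OE. The summed level of the leukocyte markers was 3.96 to 4.55 CPM in control and 7.62 to 9.33 CPM in OC2-OE. In the 3 control and 3 OC2-OE libraries PTPRC had 0 and 3 counts and CD3E 0 and 0. CD14 had 185 and 321 counts and LYZ 21 and 122. CD68 shares 81.6% of its exon bases with another gene, so its low count is uncertain. Of 5 fibroblast markers 3 were tested and 2 (COL1A1 and PDGFRB) were higher, with a summed level of 21.1 to 23.8 CPM in control and 28.1 to 32.0 CPM in OC2-OE, while DCN had 3 counts per group of 3 libraries and LUM had 6 in control and 0 in OC2-OE. The part of these markers in the results was not tested. These are bulk samples, in which fewer cells of a type and less RNA per cell cannot be told apart.

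DNA upstream of the members is shown first, because several of these genes are known as NF-kB targets themselves. RefSeq (GRCh38.p14) gave 14 windows, each with the 250 bases before a transcription start, for 8 of the 10 members: NFKB1, NFKB2, REL, RELA, NFKBIA, NFKBIB, NFKBIZ and TNFAIP3. Both strands were searched for the kappa-B consensus, the DNA element that NF-kB dimers bind, and 7 of the 8 members held a match, in 9 of their 14 windows. The same search matched 1828 of the 35116 windows of all genes (5.21%). RELA, whose 2 windows held no match, was the exception.

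The stretches below run 5′ to 3′ on the strand of the gene, with the bases of a kappa-B match in capitals. A capital run of more than 10 bases holds matches that overlap on opposite strands. Those of the 3 inhibitors with the largest change come first: NFKBIA (chr14:35404796-35404855, minus strand, 47 to 106 bases before the start), NFKBIZ at its upstream start (chr3:101827742-101827801, plus strand, 189 to 248 bases before it) and TNFAIP3 (chr6:137867188-137867217, plus strand, with 2 matches 42 to 71 bases before the start).
NFKBIA: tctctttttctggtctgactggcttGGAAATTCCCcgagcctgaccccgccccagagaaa
NFKBIZ: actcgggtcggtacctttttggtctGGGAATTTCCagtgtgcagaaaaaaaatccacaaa
TNFAIP3: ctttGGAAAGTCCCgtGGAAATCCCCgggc
The NFKBIA and NFKBIZ stretches lie outside the annotated exons of these genes, and 4 bases of the TNFAIP3 stretch lie in its first annotated exon.

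Next come NFKB2, at 2 of its 3 starts (chr10:102394462-102394490, which lies within an annotated exon of NFKB2, and chr10:102395674-102395703, 2 to 31 bases before the start, with 11 bases in an annotated exon), and REL (chr2:60881518-60881546, 28 to 56 bases before the RefSeq start and within an annotated exon), which also rose. All 3 are on the plus strand.
NFKB2 middle start: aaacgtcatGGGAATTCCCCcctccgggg
NFKB2 downstream start: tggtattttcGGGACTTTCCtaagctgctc
REL: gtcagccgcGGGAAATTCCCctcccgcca
NFKB1 (chr4:102501300-102501329, 30 to 59 bases before the start) and NFKBIB (chr19:38899932-38899960, 9 to 37 bases before its downstream start), both on the plus strand, are shown for contrast, since they hold matches of the same kind and changed little.
NFKB1: cgacgtcagtGGGAATTTCCagccaggaag
NFKBIB: ggcgtggtgGGGAATTTCCCgcagggcgg
The ONECUT core letters ATCGAT were found in none of the 14 windows and in 0.655% of all windows, and the variant ATCAAT, also searched on both strands, in none of the 14 and in 5.58% of all. A match describes letters in these windows, and no binding was measured.

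Among the members, 7 of 10 were higher in OC2-OE at an adjusted p under 0.001 and 3 (NFKB1, RELA and NFKBIE) did not pass, while 27.8% of all tested genes were called higher and 28.7% lower. The count of members called lower was 0 by edgeR's quasi-likelihood test, by DESeq2 and by limma voom, and it was 0 also at an unadjusted p under 0.05. A rise of at least 1 on the log2 scale together with an adjusted p under 0.001 was found for 6 members and for 8.29% of all tested genes. The libraries of the groups did not overlap for any of the 10 members, as for 73.2% of all tested genes. The median log2 fold change was 1.49 over the members, 1.24 over the subunits, 2.76 over the inhibitors and 0.0071 over all tested genes.

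**Figure D1:**
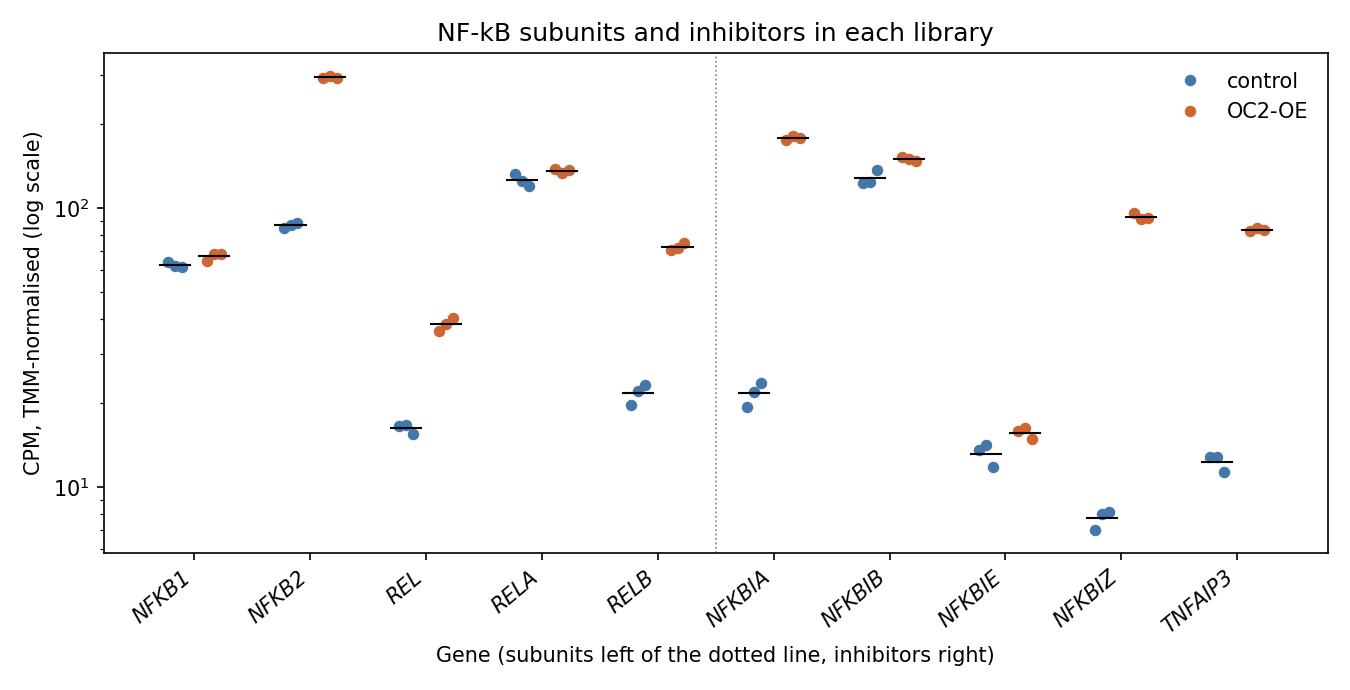
CPM (TMM-normalised, log axis) of the 10 members in each of the 6 libraries, with control in blue, OC2-OE in orange and the group mean as a black line (n = 3 per group). NFKBIA, NFKBIZ and TNFAIP3 show the widest gaps between groups, while NFKB1, RELA, NFKBIB and NFKBIE lie close together without overlap.

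RELA encodes the subunit that carries most of the activating function of canonical NF-kB. Its level was 132.7, 124.8 and 120.0 CPM in control replicates 1, 2 and 3 and 137.7, 134.2 and 137.4 CPM in the OC2-OE replicates. The OC2-OE libraries were all above the control libraries, by a small margin. The log2 fold change of RELA was 0.11 (standard error 0.033), with an adjusted p of 1.36e-03 (edgeR quasi-likelihood test, Benjamini-Hochberg), which did not pass the threshold of 0.001. RELA lay near the threshold: it passed without control replicate 1, the highest of the control libraries (log2 fold change 0.15, adjusted p of 3.7e-05 by edgeR), and with all 6 libraries it passed with library size only (adjusted p 5.35e-06) and under a minimum of 10 counts per library (7.02e-04). Over all alternatives its adjusted p ranged from 5.35e-06 to 0.0397.

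NFKB1 encodes the precursor of the usual dimer partner of RELA. Its level was 64.0, 62.0 and 61.6 CPM in the control replicates and 64.6, 68.3 and 68.6 CPM in the OC2-OE replicates. The lowest OC2-OE library, replicate 1, lay just above the highest control library. The log2 fold change of NFKB1 was 0.10 (standard error 0.043), with an adjusted p of 0.0287 by edgeR.

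NFKB2 and RELB, which encode the partners of the non-canonical dimer, changed by nearly the same factor. NFKB2 stood at 84.8, 87.3 and 88.5 CPM in control and at 292, 299 and 294 CPM in OC2-OE, a log2 fold change of 1.76 (standard error 0.031), or 3.40-fold, with an adjusted p of 1.18e-85 (edgeR). RELB stood at 19.6, 22.1 and 23.3 CPM in control and at 71.1, 71.7 and 74.9 CPM in OC2-OE, a log2 fold change of 1.75 (standard error 0.057), or 3.36-fold, with an adjusted p of 6.23e-58 (edgeR). For both genes the gap between the groups was far wider than the spread within either. About 3% of all tested genes had a larger log2 fold change than these (3.17% for NFKB2 and 3.25% for RELB).

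REL encodes c-Rel, a subunit best known from lymphoid cells. Its level was 16.6, 16.7 and 15.4 CPM in control and 36.3, 38.6 and 40.2 CPM in OC2-OE. All OC2-OE libraries were above all control libraries, and the log2 fold change was 1.24 (standard error 0.068), at an adjusted p of 9.37e-36 (edgeR). On the same strand, 33.3% of the exon bases annotated for REL also belong to another gene model (ENSG00000267520). Read pairs from shared bases are not assigned to either, so the level of REL may be understated in both groups. The number of read pairs lost in this way was not measured.

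NFKBIA, which encodes IkB-alpha, the main cytoplasmic inhibitor and a feedback target of NF-kB, was among the most changed members. It rose from 19.4, 21.9 and 23.7 CPM in the control replicates to 175, 182 and 178 CPM in the OC2-OE replicates. The log2 fold change of NFKBIA was 3.05 (standard error 0.051), or 8.25-fold, with an adjusted p of 1.02e-91 (edgeR), and 0.959% of all tested genes had a larger one. Its counts were 363 to 385 per control library and 3147 to 3355 per OC2-OE library, so counting error is small beside the change.

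The other cytoplasmic inhibitors moved little. NFKBIB, which encodes IkB-beta, stood at 123, 125 and 138 CPM in control and at 153, 150.1 and 147 CPM in OC2-OE, a log2 fold change of 0.23 (standard error 0.033) with an adjusted p of 1.48e-09 (edgeR). NFKBIE, which encodes IkB-epsilon, stood at 13.5, 14.2 and 11.7 CPM in control and at 15.9, 16.2 and 14.8 CPM in OC2-OE, a log2 fold change of 0.25 (standard error 0.086) with an adjusted p of 0.00794 (edgeR), which did not pass. The changes of NFKBIB and NFKBIE are thus of like size, and NFKBIB, with more counts (6620 against 681 over the control libraries), has the smaller standard error.

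NFKBIZ, which encodes IkB-zeta, a nuclear member of the IkB family that also acts as a coactivator at some targets, had the largest log2 fold change of the 10 members. Its level was 7.01, 8.01 and 8.12 CPM in control, from 131 to 134 counts per library, and 96.0, 91.3 and 92.0 CPM in OC2-OE, from 1582 to 1839 counts. The log2 fold change of NFKBIZ was 3.60 (standard error 0.080), or 12.1-fold, with an adjusted p of 2.56e-84 (edgeR), and 0.578% of all tested genes had a larger one. The bases that NFKBIZ shares with NXPE3 on the same strand are 3.29% of its exons.

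TNFAIP3 encodes A20, a ubiquitin-editing enzyme that dampens signalling upstream of the IKK kinases. It stood at 12.8, 12.8 and 11.3 CPM in control and at 83.0, 84.5 and 83.4 CPM in OC2-OE. The log2 fold change of TNFAIP3 was 2.76 (standard error 0.067), or 6.76-fold, with an adjusted p of 1.62e-75 (edgeR). The OC2-OE libraries lay close together and far above the control libraries.

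**Figure D2:**
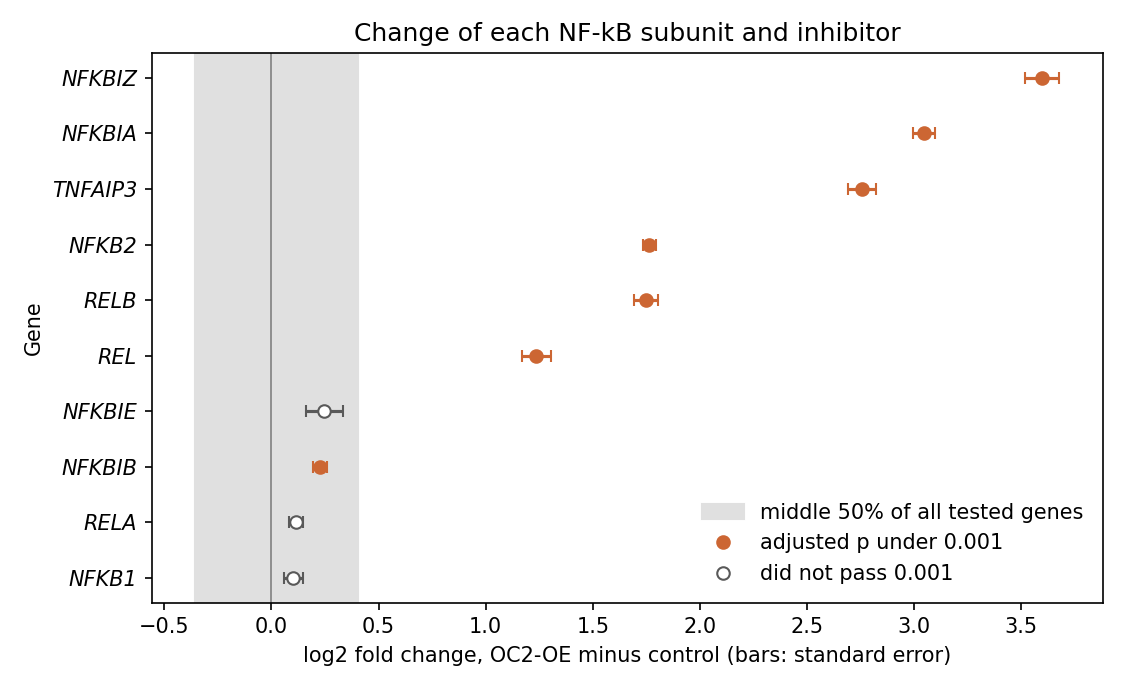
Log2 fold change of each member, OC2-OE minus control, with its standard error as bars, filled where the adjusted p (edgeR) was under 0.001, and the middle 50% of all 17307 tested genes (-0.36 to 0.40) shaded. NFKB1, RELA, NFKBIB and NFKBIE lie within the shaded range, and the other 6 members lie above it, at 1.24 to 3.60.

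Levels were compared between genes as RPKM, that is, CPM per kilobase of annotated exon. In control, NFKBIB was the most abundant member at 55.2 ± 3.41 RPKM (SD, n = 3), followed by RELA at 23.1 ± 1.18, NFKB2 at 15.6 ± 0.333, RELB at 7.23 ± 0.621, NFKBIA at 6.39 ± 0.629, NFKBIE at 5.09 ± 0.486, NFKB1 at 3.99 ± 0.0820, TNFAIP3 at 1.93 ± 0.138, NFKBIZ at 1.31 ± 0.103 and REL at 0.949 ± 0.0416. The ranges of RELB and NFKBIA overlapped, and no other neighbours in this order did. In OC2-OE the order was NFKBIB at 64.6 ± 1.29 RPKM, NFKB2 at 52.8 ± 0.605, NFKBIA at 52.5 ± 0.964, RELA at 25.0 ± 0.358, RELB at 24.2 ± 0.690, NFKBIZ at 15.8 ± 0.427, TNFAIP3 at 13.1 ± 0.127, NFKBIE at 6.06 ± 0.282, NFKB1 at 4.28 ± 0.142 and REL at 2.24 ± 0.115. Here the ranges of NFKB2 and NFKBIA overlapped, as did those of RELA and RELB. NFKB2 and NFKBIA thus passed RELA, and NFKBIZ and TNFAIP3 passed NFKBIE and NFKB1.

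The order depends on the length used. The summed exons of NFKB1 (15679 bases) and REL (17129 bases) are far longer than the median protein-coding transcript of these genes in GENCODE release 29 (3858.5 and 6826.5 bases). With the median transcript length, an alternative chosen after the data had been seen, NFKB1 moved from the seventh to the fourth place in control (16.2 ± 0.333 RPKM) and from the ninth to the eighth in OC2-OE (17.4 ± 0.576 RPKM). NFKBIB was first in both groups by either length, RELA was second in control, and in OC2-OE NFKBIA took the second place ahead of NFKB2 (116 against 95.1 RPKM).

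The make-up of the subunit transcripts shifted from RELA to NFKB2 and RELB. Of the RPKM summed over the 5 subunits, RELA held 47.6, 45.0 and 43.6% in the control replicates and 23.5, 22.6 and 23.0% in the OC2-OE replicates. NFKB2 held 29.7, 30.8 and 31.4% in control and 48.7, 49.3 and 48.0% in OC2-OE. RELB went from 14.2 ± 1.31% to 22.3 ± 0.455%, NFKB1 from 7.85 ± 0.114% to 3.95 ± 0.0987% and REL from 1.87 ± 0.0724% to 2.06 ± 0.0868% (SD, n = 3).

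None of these 5 shares overlapped between the groups, and each had p = 0.1 in a two-sided exact permutation test, before and after Benjamini-Hochberg adjustment over the 5, which is the smallest p that 3 against 3 libraries allow. The summed RPKM of the subunits rose from 50.8 ± 0.336 to 109 ± 0.995, so the falling shares of RELA and NFKB1 stand beside levels that did not fall. The RPKM of RELB was 0.315 ± 0.0424 of that of RELA in control and 0.968 ± 0.0269 in OC2-OE. That of NFKB2 was 3.91 ± 0.162 times that of NFKB1 in control and 12.3 ± 0.341 times in OC2-OE.

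The size of these shares and ratios depends on the length. Length cannot alter the direction of a ratio of 2 genes. It also cannot alter that of the shares of NFKB1 and NFKB2, the subunits with the smallest and largest change. The shares of RELA, RELB and REL kept their direction with either length. With median transcript lengths NFKB1 held 15.7 ± 0.131% of the subunits in control and 8.67 ± 0.212% in OC2-OE, and RELB held 9.23 ± 0.913% and 15.9 ± 0.331%. Without division by length NFKB1 held 19.96 ± 0.161% and 11.0 ± 0.248%, RELB 6.93 ± 0.691% and 11.9 ± 0.245%, and REL 5.19 ± 0.177% and 6.29 ± 0.255%. With median transcript lengths RELB stood at 0.203 ± 0.0274 of RELA in control and 0.626 ± 0.0174 in OC2-OE, where their ranges did not overlap, so the near parity in OC2-OE holds for the exon length only. NFKB2 stood at 1.73 ± 0.0717 times NFKB1 in control and 5.46 ± 0.151 times in OC2-OE by that length.

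**Figure D3:**
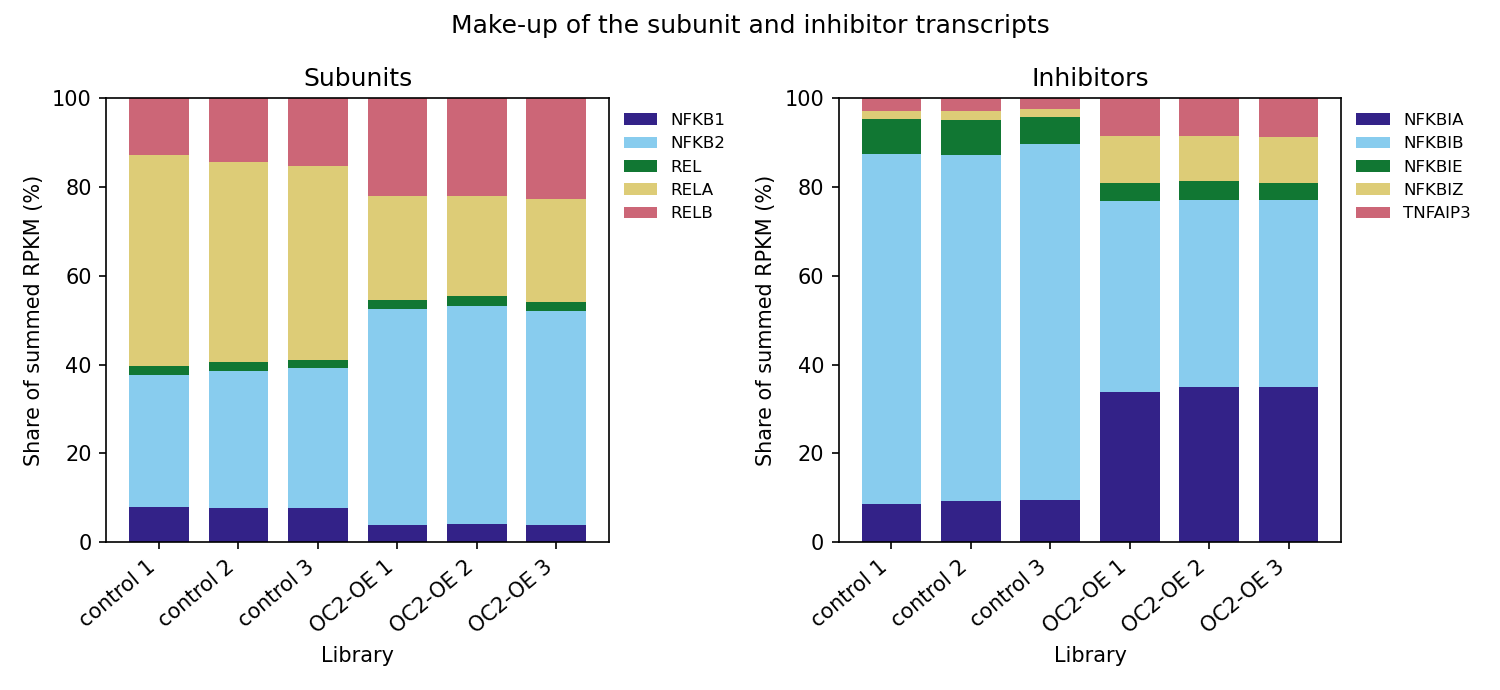
Share (%) of each subunit in the RPKM summed over the 5 subunits (left) and of each inhibitor in the RPKM summed over the 5 inhibitors (right), 1 bar per library. RELA and NFKBIB take the largest shares in control, and NFKB2 takes the largest subunit share and NFKBIA a share of 34.6% of the inhibitors (mean) in OC2-OE.

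Among the inhibitors, NFKBIB held 78.9 ± 1.18% of the summed RPKM in control and 42.5 ± 0.543% in OC2-OE, and NFKBIE went from 7.31 ± 0.999% to 3.98 ± 0.145%. NFKBIA took 9.12 ± 0.510% in control and 34.6 ± 0.703% in OC2-OE, NFKBIZ 1.87 ± 0.0992% and 10.4 ± 0.265%, and TNFAIP3 2.77 ± 0.324% and 8.61 ± 0.104%. The RPKM of NFKBIA was 0.278 ± 0.0410 of that of RELA in control and 2.10 ± 0.0676 times it in OC2-OE. With median transcript lengths this ratio was 0.302 ± 0.0445 and 2.28 ± 0.0733, and without division by length 0.173 ± 0.0255 and 1.31 ± 0.0420. By exon length and by median transcript length NFKBIB held the largest share in both groups. With median transcript lengths NFKBIE held less, 3.79 ± 0.538% in control and 2.03 ± 0.0753% in OC2-OE, while NFKBIB (81.9 and 43.5%) and NFKBIA (10.4 and 38.9%) were close to the values above. In shares of counts, without division by length, NFKBIB was no longer the largest in OC2-OE, where NFKBIA held 34.2 ± 0.665% and NFKBIB 28.8 ± 0.401%, against 11.8 ± 0.672% and 70.03 ± 1.43% in control. The shares of counts of NFKBIZ (4.21 ± 0.212% in control and 17.9 ± 0.459% in OC2-OE) and TNFAIP3 (6.75 ± 0.764% and 16.1 ± 0.173%) were larger than their shares by length.

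Subunit and inhibitor transcripts rose by a like factor when summed per exon length (2.14 and 2.17 times). The ratio of the 5 inhibitors to the 5 subunits was 1.31, 1.36 and 1.46 in the control replicates and 1.42, 1.41 and 1.37 in the OC2-OE replicates, with means of 1.38 ± 0.0775 and 1.40 ± 0.0261 (two-sided exact permutation test, p = 0.6, where the smallest possible is 0.1). The groups overlapped, with the control libraries spread more widely. This depends on which genes and lengths enter the sum: with NFKBIA, NFKBIB and NFKBIE as the only inhibitors the ratio was lower in OC2-OE, at 1.14 ± 0.0217 against 1.31 ± 0.0781 (exact permutation p = 0.1), and with median transcript lengths it was higher, at 1.48 ± 0.0257 against 1.31 ± 0.0898, both without overlap. Without division by length the ratio was also higher in OC2-OE, at 0.855 ± 0.0153 against 0.586 ± 0.0350, without overlap.

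Upstream of the members, the ligands and receptors of the pathway held genes that moved both ways. Of 21 listed genes 15 were tested, 9 were higher and 3 lower, beside 27.8% higher and 28.7% lower among all tested genes, with a median log2 fold change of 0.82. With at least 10 counts required per library 5 were higher, and in 10 of 13 alternatives 2 were lower, TNFRSF13C being the one lost. TNF, the ligand that gives the pathway its best-known stimulus, stood at 0.161, 0.418 and 0.184 CPM in control, from 13 counts in all, and at 9.97, 9.29 and 9.44 CPM in OC2-OE, a log2 fold change of 5.21 (standard error 0.42) with an adjusted p of 1.25e-41 (edgeR). The innate immune receptors TLR3 (log2 fold change 2.71, standard error 0.31) and TLR4 (2.13, 0.27) and the ligand TNFSF12 (2.19, 0.22) also rose, from 34, 43 and 63 counts in the control libraries together. The counts of TLR3 were 21, 3 and 10 in control replicates 1, 2 and 3, so the size of its change is uncertain. TNFSF12 shares 12.1% of its exon bases with a read-through gene, so its level is uncertain. Of the receptors, TNFRSF1A, the main receptor for TNF, fell from 33.7, 30.7 and 32.2 CPM in control to 14.1, 14.8 and 14.98 CPM in OC2-OE, a log2 fold change of -1.14 (standard error 0.072) with an adjusted p of 9.69e-31 (edgeR). TNFRSF11A fell by 0.79 on the log2 scale. TNFRSF13C had 100 counts in the control libraries together and 53 in the OC2-OE libraries. Its log2 fold change was -0.99, with an adjusted p of 8.42e-04 (edgeR). The call held in 3 of 13 alternatives: DESeq2 size factors, a minimum of 10 counts per library and without control replicate 3. Its adjusted p ranged from 4.09e-04 to 8.68e-03. The call was lost by the DESeq2 test, by limma voom, with library size only and without a filter on low counts. It was also lost under the replicate block (1.38e-03 by edgeR) and when any other library was left out. These 3 receptors were singled out after their values were seen. IL1A and CD40LG had no count in any library.

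In the IKK complex and its kinases, 4 of 10 genes were higher and 1 lower, a number called (5 of 10) close to the 56.5% of all tested genes, with a median log2 fold change of 0.10. MAP3K14, the kinase of the non-canonical pathway, fell from 63.9, 67.4 and 70.8 CPM in control to 34.2, 32.5 and 31.2 CPM in OC2-OE, a log2 fold change of -1.04 (standard error 0.051) with an adjusted p of 1.78e-39 (edgeR). IKBKE, an inducible IKK-related kinase, rose by 2.25 (standard error 0.22) from 63 counts in the control libraries together. The canonical kinase IKBKB (0.20, standard error 0.037) and the IKK-related TBK1 (0.30, standard error 0.033) rose slightly. The other core members of the complex, CHUK and the scaffold IKBKG, had log2 fold changes of -0.064 and -0.12 with adjusted p of 0.109 and 0.265 by edgeR.

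Of 18 adaptors and ubiquitin ligases 10 were higher and 2 lower (median 0.23), where 27.8% of all tested genes were higher and 28.7% lower. BIRC3, a ubiquitin ligase recruited to TNF receptors, rose from 16.5, 15.3 and 16.4 CPM to 162, 158 and 155 CPM, a log2 fold change of 3.30 (standard error 0.056) with an adjusted p of 1.34e-93 (edgeR). RBCK1, of the complex that builds linear ubiquitin chains, rose by 1.04 (standard error 0.031), the receptor adaptor TRADD by 0.96 (standard error 0.091) and TRAF3, which promotes the degradation of MAP3K14, by 0.89 (standard error 0.047). BIRC3 and NFKBIA thus changed by a similar factor, while most adaptors changed by less. The 2 lower genes were TRAF2 (log2 fold change -0.85, standard error 0.039) and IRAK1 (-0.18, standard error 0.023). TRAF2 and IRAK1 were named after their values were seen.

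Of 9 deubiquitinases and partners of TNFAIP3 8 were tested, 5 were higher and 2 lower (median 0.20), against 27.8% and 28.7% of all tested genes. The TNFAIP3-binding proteins TNIP1 and TNIP2 rose by 0.59 (standard error 0.030) and 0.39 (standard error 0.044). OTULIN, which removes linear ubiquitin chains, fell by 0.59 (standard error 0.037), and COMMD1, which promotes the turnover of RELA, fell by 0.39 (standard error 0.072). COMMD1 shares 33.6% of its exon bases with a pseudogene, which makes its level uncertain.

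The other IkB family and nuclear cofactors comprised 6 genes, of which 3 were higher and 1 lower (median 0.34), so that 4 of 6 were called, beside 56.5% of all tested genes. BCL3, a nuclear IkB protein that binds NFKB1 and NFKB2 dimers, stood at 16.3, 17.99 and 15.4 CPM in control and 30.2, 30.4 and 34.8 CPM in OC2-OE, a log2 fold change of 0.94 (standard error 0.071) with an adjusted p of 2.44e-24 (edgeR). NFKBID, another nuclear IkB protein, rose by 1.50 (standard error 0.11) from 278 counts in the control libraries together. NFKBIL1, a more distant relative, rose by 0.57 (standard error 0.080), and the nuclear cofactor AKIRIN2 fell by 0.25 (standard error 0.052).

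**Figure D4:**
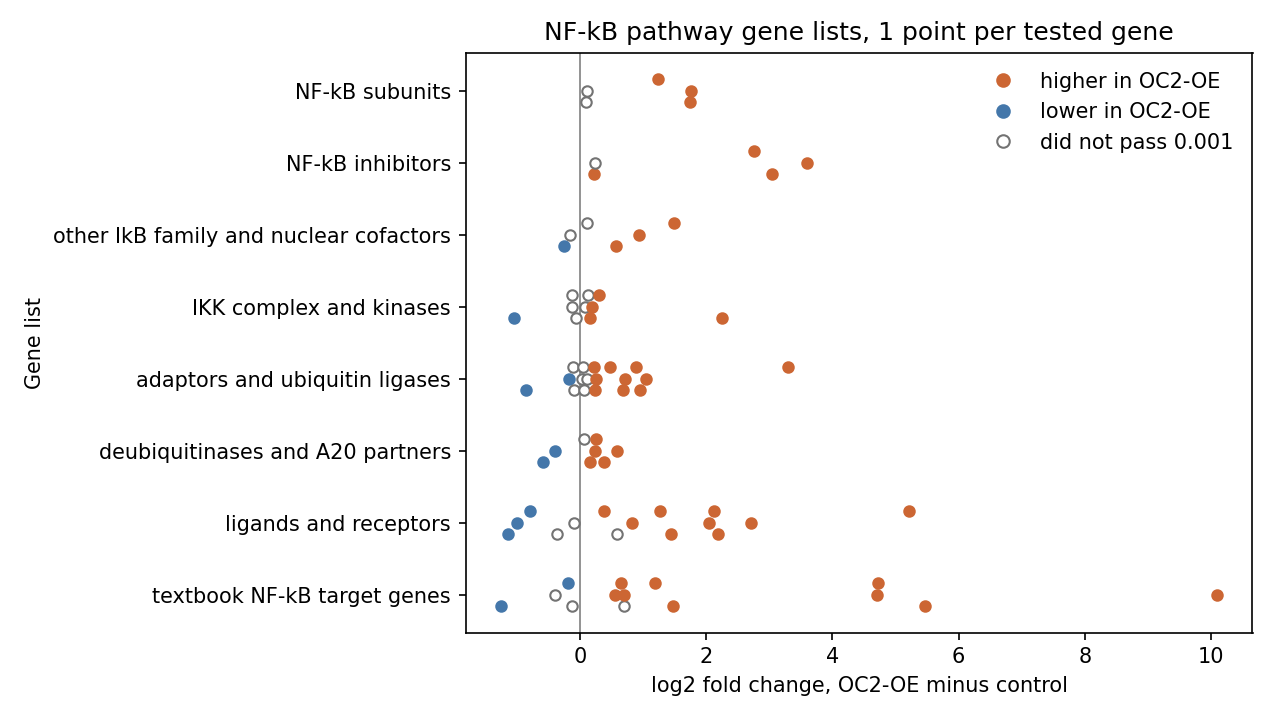
Log2 fold change, OC2-OE minus control, of each tested gene of the 8 NF-kB gene lists, 1 point per gene, orange where higher, blue where lower and open where the adjusted p (edgeR) was not under 0.001. The target genes reach the largest values (CCL20 at 10.09), and the IKK complex and kinases lie mostly near 0 apart from IKBKE at 2.25 and MAP3K14 at -1.04.

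Of 17 textbook NF-kB target genes 14 were tested, 9 were higher and 2 lower (median 0.70), with 27.8% higher and 28.7% lower among all tested genes. A minimum of 10 counts per library, which CCL20 and TNFAIP2 do not reach in all control libraries, left 7 higher. The chemokine CCL20 had 19 counts in the control libraries together and 22341 in the OC2-OE libraries, at 0.375, 0.538 and 0.184 CPM against 418, 411 and 396 CPM, a log2 fold change of 10.09 (standard error 0.33) with an adjusted p of 1.51e-125 (edgeR). The neutrophil chemokine CXCL8 went from 49.6, 49.0 and 48.3 CPM to 1306, 1302 and 1277 CPM (log2 fold change 4.72, standard error 0.031), and the stress-response gene IER3 from 22.2, 23.2 and 21.9 CPM to 584, 586 and 589 CPM (4.71, standard error 0.043). CXCL1 rose by 5.47 (standard error 0.090), and since its close paralogs can share its reads, its separate value is uncertain. The list was mixed beyond these: the cell-cycle gene CCND1 and the survival gene BCL2L1 were the 2 that fell, by 1.24 and 0.19, and IL6, with a log2 fold change of 0.69 and an adjusted p of 1.29e-03 (edgeR), did not pass. IL6 passed in 3 of 13 alternatives, with library size only (6.18e-04), without control replicate 1 (4.57e-04) and without OC2-OE replicate 1 (9.60e-04). CCND1, BCL2L1 and IL6 were singled out after their values were seen.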

How the data were processed

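Stranded poly(A) libraries from 3 control and 3 OC2-OE cultures of DMS53 were analysed. The submitters' processing notes name FastQC 0.11.8, STAR 2.7.9a, featureCounts 1.6.0, edgeR and limma on GRCh38. The deposited values are raw counts of read pairs per gene (GENCODE release 42) with no normalization; read pairs that meet 2 genes on 1 strand were left out by the counting.

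Counts were normalized by TMM and filtered with filterByExpr in edgeR 4.0.16 (R 4.3.3), and 17307 genes were tested with the quasi-likelihood test (robust, no replicate term), with Benjamini-Hochberg adjustment over all of them and the threshold of 0.001 of the study. Standard errors are Wald errors of the fit, no smaller than the Poisson error of the fitted counts; this was chosen after seeing the data, since the log2 fold change over the root of F, planned first, came out below counting error for large changes. Shares and ratios were compared by exact permutation. The steps were tested on simulated data.

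The members and lists were chosen with earlier results of these data known. Named beside the members and ONECUT2 are, on each pathway list, the 4 genes with the largest absolute change under 0.001; cell type markers, untested or uncalled genes and those said to be chosen later are exceptions. Alternatives were DESeq2 1.42.0, its size factors, limma voom (limma 3.58.1), library size only, 2 other count filters, a replicate block, each library left out, other thresholds and other lengths. Promoters are from RefSeq.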

Additional observations from a re-analysis of the deposited data

How the results depend on the processing

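The 7 members called higher passed 0.001 in every alternative fit, and no member changed direction. RELA passed with library size only (log2 fold change 0.1652), with at least 10 counts in every library (0.1225) and without control replicate 1 (0.1537). Over the libraries left out in turn, RELA ranged from 0.0792 to 0.1537 on the log2 scale. Where a log2 fold change of 1 or more in size was also required, the calls over all genes were 1435 higher and 1564 lower. The filter of 10 counts in every library left 5 ligands and receptors higher in place of 9. The ratio of inhibitors to subunits in OC2-OE, divided by that in control, was 1.017, but 1.46 without division by length, 1.13 with the median coding transcript and 0.8638 with NFKBIA, NFKBIB and NFKBIE only. The share in OC2-OE divided by that in control, without division by length and with the median coding transcript, was 0.5522 and 0.5514 for NFKB1, 1.744 and 1.741 for NFKB2, 1.213 and 1.211 for REL, 0.5573 and 0.5564 for RELA and 1.719 and 1.717 for RELB. The transcript length was added after the data had been seen. The cause of each difference other than the genes or lengths entered was not tested. All 308 alternative values that could be computed for the 24 pathway genes named by the rule kept their call and direction. The genes named outside the rule and tested are considered here without the NE markers, TRAF2, IRAK1, LTBR and LTB. Among the rest, TNFRSF13C lost its call in 10 of 13 alternatives and IL6 gained one in 3 of 13. TNFRSF1A, TNFRSF11A, CHUK, IKBKG, CCND1, BCL2L1, CD14, LYZ, COL1A1 and PDGFRB kept theirs. Precision is limited for genes with few counts, such as TNF with 13 counts in control.

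The deviations of cultures with the same replicate number had correlations of -0.000786, 0.0181 and 0.0130. Those of cultures with different numbers had correlations of -0.0165 to 0.00327. Libraries of a group differed little beyond sampling, so correlations this small cannot tell whether the numbers pair the cultures. With the replicate number as a block, 4734 genes were higher and 4908 lower, and 7 members were higher and 0 lower by edgeR.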
